A study of Mus musculus with 12 samples.

Results

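The genes described here code for proteins of central nervous system myelin: Mog, Mobp, Mbp, Mag, Cnp, Ugt8a, Mal, Cldn11 and Opalin. They were chosen by name, with earlier results of these data known. Every probe set whose annotated symbol was exactly one of these names belonged to the group. A gene was represented by its brightest probe set (by the mean of all 12 arrays). This gave 9 of 18194 genes and 25 of 45101 probe sets. All 9 were tested, since no filter on low values was applied. The arrays held RNA of granule cell precursors (GCPs), the dividing neuronal precursors of the outer cerebellar layer, which were enriched on a Percoll density gradient from mice at postnatal day 8. Mutant GCPs came from Atoh1-CreER/+; R26LSL-SmoM2-YFP mice, given tamoxifen at 200 µg per g on postnatal day 2. In these mice a tamoxifen-dependent Cre driven by Atoh1, a gene of the granule cell lineage, removes a stop cassette before SmoM2, an active form of the hedgehog signal transducer Smoothened fused to YFP. WT GCPs were labelled wild type, and the sources used here do not say whether those mice received tamoxifen or carried Cre. The background of all mice was mixed, from C57BL/6 and Swiss Webster stocks. GCPs of the hemispheres (the lateral cerebellum) and of the vermis (the medial cerebellum) were collected separately. The groups were SmoM2 hemisphere, WT hemisphere, SmoM2 vermis and WT vermis, with 3 arrays each, and each array held a pool of 5 mice.

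Myelin is the membrane that oligodendrocytes wrap around axons, and its protein and lipid genes are switched on together as precursors of these cells mature. In the rodent cerebellum the first postnatal weeks are the time at which myelination begins. Granule cell precursors do not make myelin, so transcripts of these genes in a Percoll fraction are read here as a property of the whole fraction. In such bulk samples, fewer cells of a type and less RNA per cell cannot be told apart.

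The promoters of the 3 members with the largest mean difference between SmoM2 and WT GCPs are shown because the members moved together on the arrays. Each is the 250 bases before the gene's start in RefSeq (build GRCm38.p6), written 5′ to 3′ on the gene's strand, and capitals mark the motifs found. Mog lies on the minus strand at chr17:37023399-37023648, Mobp on the plus strand at chr9:120149492-120149741 and Ugt8a on the minus strand at chr3:125938653-125938902.
Mog: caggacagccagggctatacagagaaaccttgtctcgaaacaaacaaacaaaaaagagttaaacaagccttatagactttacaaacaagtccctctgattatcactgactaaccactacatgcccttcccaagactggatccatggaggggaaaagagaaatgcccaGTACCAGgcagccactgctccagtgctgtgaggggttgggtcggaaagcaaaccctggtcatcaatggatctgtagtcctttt
Mobp: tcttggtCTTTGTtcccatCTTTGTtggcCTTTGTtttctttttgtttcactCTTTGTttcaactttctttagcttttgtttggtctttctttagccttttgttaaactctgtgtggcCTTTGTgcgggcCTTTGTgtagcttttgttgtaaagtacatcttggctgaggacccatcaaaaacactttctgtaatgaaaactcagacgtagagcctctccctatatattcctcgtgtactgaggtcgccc
Ugt8a: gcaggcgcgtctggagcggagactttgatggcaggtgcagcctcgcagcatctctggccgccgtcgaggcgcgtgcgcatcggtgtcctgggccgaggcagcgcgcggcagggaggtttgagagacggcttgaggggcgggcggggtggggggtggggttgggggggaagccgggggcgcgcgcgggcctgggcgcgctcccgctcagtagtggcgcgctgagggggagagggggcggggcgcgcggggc
The search covered 250 bases before to 50 after the start, on both strands, for ACAAAG and ACAATG (the core bound by Sox factors), CAGCTG (an E-box) and CTGGCAC and CTGGTAC (the core bound by Myrf). None of these motifs overlaps another in the sequences shown. The Mobp promoter held 6 copies of ACAAAG, all on the opposite strand and so shown as CTTTGT, at -243, -231, -221, -198, -132 and -120 from the start. Of 32851 promoters of the same length in the table, 28.6% held either Sox core, and 1, that of Mobp itself, held 6 or more. The Mog promoter held 1 CTGGTAC, at -83 on the opposite strand, a motif found in 2.24% of all promoters. The Ugt8a promoter, with 76.8% G and C against 40.8% for Mobp and 46.8% for Mog, held none of the motifs. In the other promoters read, ACAAAG (18.7% of all promoters) occurred in those of Mag (2 of its 3 entries), Cnp and Opalin, as did CTGGCAC (5.01% of all promoters). CAGCTG (16.3% of all promoters) occurred in that of Opalin, ACAATG (12.6% of all promoters) in none, and the Mal and Cldn11 promoters held no motif. Such matches describe the letters only.

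The 12 arrays had median log2 levels of 4.81 to 4.87. The hedgehog targets Gli1 and Hhip followed the labels: Gli1 averaged 8.81 ± 0.10 in SmoM2 hemisphere GCPs and 7.13 ± 0.29 in WT hemisphere GCPs, and 8.66 ± 0.14 in SmoM2 vermis GCPs and 7.15 ± 0.19 in WT vermis GCPs (log2, SD, n = 3 each). Atoh1, which marks granule cell precursors, averaged 8.98 and 8.71 in SmoM2 hemisphere and vermis GCPs and 8.16 and 7.85 in the WT groups of the same regions. The difference between the 3′ and 5′ probe sets of Actb, a reading of RNA integrity and labelling, was 0.98 ± 0.11 in SmoM2 hemisphere, 0.64 ± 0.17 in WT hemisphere, 0.96 ± 0.10 in SmoM2 vermis and 0.89 ± 0.01 in WT vermis arrays (log2, SD, n = 3 each). For this difference SmoM2 and WT arrays did not overlap in the hemisphere and overlapped in the vermis. The mean of the 18S rRNA probe sets was 11.18 ± 0.30 in SmoM2 hemisphere and 10.55 ± 0.40 in WT hemisphere arrays, with overlap, and 11.23 ± 0.07 in SmoM2 vermis and 10.65 ± 0.17 in WT vermis arrays, without overlap (log2, SD, n = 3 each). The mean of the dap probe sets, a spiked control, was 10.68 ± 0.50 in SmoM2 hemisphere and 8.98 ± 0.86 in WT hemisphere arrays, without overlap, and 10.67 ± 0.08 in SmoM2 vermis and 10.43 ± 0.34 in WT vermis arrays, with overlap (log2, SD, n = 3 each). The part of these 3 measures in the results that follow was not tested.

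All 9 myelin genes were lower in SmoM2 than in WT GCPs, in both regions. In the hemisphere the differences ran from -0.95 (Opalin) to -1.54 (Mog) on the log2 scale, which is 1.93-fold to 2.91-fold lower, with a median of -1.39. In the vermis they ran from -1.02 (Cldn11) to -1.93 (Mobp), 2.02-fold to 3.80-fold lower, with a median of -1.83. The threshold was an adjusted p of 0.05 (limma, Benjamini-Hochberg, all 18194 genes), and 9 of 9 passed as lower in each region, against 7.18% of all genes in the hemisphere and 9.46% in the vermis. The median of all genes was -0.05 in the hemisphere and -0.06 in the vermis. The 3 SmoM2 and 3 WT arrays did not overlap for any of the 9 members in either region, against 18.3% of all genes lower without overlap in the hemisphere and 22.5% in the vermis. Because the members were chosen with earlier results known, the shares of all genes beside them, here and further on, are a description and not a test.

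The main structural proteins of compact myelin showed differences of similar size. Mbp, myelin basic protein, which holds the inner faces of the membrane together, gave the brightest signal of the group. Mbp had log2 levels of 10.51, 11.14 and 10.84 in SmoM2 hemisphere GCPs, against 11.98, 12.24 and 12.44 in WT hemisphere GCPs. Mbp had log2 levels of 10.46, 11.28 and 10.76 in SmoM2 vermis GCPs, against 12.31, 12.84 and 12.79 in WT vermis GCPs. In both regions the highest SmoM2 array lay below the lowest WT array. Mbp averaged 10.83 ± 0.32 in SmoM2 hemisphere and 12.22 ± 0.23 in WT hemisphere GCPs (SD, n = 3 each), a log2 difference of -1.39 ± 0.21 (SE, adjusted p = 0.000558) or 2.62-fold lower. Mbp averaged 10.83 ± 0.41 in SmoM2 vermis and 12.65 ± 0.29 in WT vermis GCPs (SD, n = 3 each), a log2 difference of -1.81 ± 0.21 (SE, adjusted p = 4.94e-05) or 3.51-fold lower. Mobp, another abundant basic protein of compact myelin, was dimmer. Mobp had log2 levels of 5.98, 6.83 and 6.72 in SmoM2 hemisphere GCPs, against 7.75, 7.84 and 8.13 in WT hemisphere GCPs. Mobp had log2 levels of 6.61, 7.17 and 6.82 in SmoM2 vermis GCPs, against 8.36, 9.03 and 8.99 in WT vermis GCPs. The 3 SmoM2 vermis arrays were all more than 1 log2 unit below the 3 WT vermis arrays. Mobp averaged 6.51 ± 0.46 in SmoM2 hemisphere and 7.91 ± 0.20 in WT hemisphere GCPs (SD, n = 3 each), a log2 difference of -1.39 ± 0.23 (SE, adjusted p = 0.000883) or 2.63-fold lower. Mobp averaged 6.87 ± 0.28 in SmoM2 vermis and 8.79 ± 0.38 in WT vermis GCPs (SD, n = 3 each), a log2 difference of -1.93 ± 0.23 (SE, adjusted p = 5.08e-05) or 3.80-fold lower. Mal, a membrane proteolipid of lipid rafts in myelin, had a wider gap between the regions than the other members in both genotypes. Mal had log2 levels of 5.88, 6.43 and 6.26 in SmoM2 hemisphere GCPs, against 7.69, 7.50 and 7.00 in WT hemisphere GCPs. Mal had log2 levels of 6.81, 6.97 and 6.64 in SmoM2 vermis GCPs, against 8.41, 8.98 and 8.51 in WT vermis GCPs. The lowest WT hemisphere array of Mal lay close to the highest SmoM2 vermis array. Mal averaged 6.19 ± 0.28 in SmoM2 hemisphere and 7.40 ± 0.36 in WT hemisphere GCPs (SD, n = 3 each), a log2 difference of -1.21 ± 0.19 (SE, adjusted p = 0.0008) or 2.31-fold lower. Mal averaged 6.81 ± 0.17 in SmoM2 vermis and 8.63 ± 0.30 in WT vermis GCPs (SD, n = 3 each), a log2 difference of -1.83 ± 0.19 (SE, adjusted p = 2.06e-05) or 3.55-fold lower.

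The surface and adhesion proteins moved the same way. Mag, myelin-associated glycoprotein, faces the axon and holds the innermost myelin layer to it. Mag had log2 levels of 6.88, 7.55 and 7.26 in SmoM2 hemisphere GCPs, against 8.51, 8.58 and 8.82 in WT hemisphere GCPs. Mag had log2 levels of 7.10, 7.78 and 7.29 in SmoM2 vermis GCPs, against 8.94, 9.55 and 9.29 in WT vermis GCPs. SmoM2 arrays of the 2 regions lay in about the same range, below every WT array. Mag averaged 7.23 ± 0.34 in SmoM2 hemisphere and 8.63 ± 0.16 in WT hemisphere GCPs (SD, n = 3 each), a log2 difference of -1.40 ± 0.20 (SE, adjusted p = 0.000306) or 2.65-fold lower. Mag averaged 7.39 ± 0.35 in SmoM2 vermis and 9.26 ± 0.30 in WT vermis GCPs (SD, n = 3 each), a log2 difference of -1.87 ± 0.20 (SE, adjusted p = 2.17e-05) or 3.66-fold lower. Mog, myelin oligodendrocyte glycoprotein, sits on the outermost face of the sheath and is an antigen in experimental demyelination. Mog had log2 levels of 4.31, 5.27 and 5.08 in SmoM2 hemisphere GCPs, against 6.69, 6.33 and 6.25 in WT hemisphere GCPs. Mog had log2 levels of 5.33, 5.74 and 5.40 in SmoM2 vermis GCPs, against 7.05, 7.77 and 7.15 in WT vermis GCPs. The first SmoM2 hemisphere array had the lowest Mog value of all 12 arrays. Mog averaged 4.88 ± 0.51 in SmoM2 hemisphere and 6.42 ± 0.24 in WT hemisphere GCPs (SD, n = 3 each), a log2 difference of -1.54 ± 0.24 (SE, adjusted p = 0.000547) or 2.91-fold lower. Mog averaged 5.49 ± 0.22 in SmoM2 vermis and 7.32 ± 0.39 in WT vermis GCPs (SD, n = 3 each), a log2 difference of -1.83 ± 0.24 (SE, adjusted p = 0.000105) or 3.56-fold lower. Opalin, a transmembrane glycoprotein of oligodendrocytes, was the dimmest member. Opalin had log2 levels of 4.02, 4.59 and 4.38 in SmoM2 hemisphere GCPs, against 5.09, 5.22 and 5.51 in WT hemisphere GCPs. Opalin had log2 levels of 4.55, 4.70 and 4.59 in SmoM2 vermis GCPs, against 5.42, 6.14 and 5.92 in WT vermis GCPs. All 6 SmoM2 values stayed under the lowest WT value, 5.09. Opalin averaged 4.33 ± 0.29 in SmoM2 hemisphere and 5.27 ± 0.21 in WT hemisphere GCPs (SD, n = 3 each), a log2 difference of -0.95 ± 0.18 (SE, adjusted p = 0.00272) or 1.93-fold lower. Opalin averaged 4.61 ± 0.07 in SmoM2 vermis and 5.83 ± 0.37 in WT vermis GCPs (SD, n = 3 each), a log2 difference of -1.21 ± 0.18 (SE, adjusted p = 0.000358) or 2.32-fold lower. With the mean of both Opalin probe sets in place of the brighter, the hemisphere difference was -0.55 (adjusted p = 0.00989) and the vermis difference was -0.58 (adjusted p = 0.00629).

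The enzymes and the junction protein completed the pattern. Cnp, a cyclic nucleotide phosphodiesterase of non-compact myelin, had the least spread between WT hemisphere arrays of any member except Cldn11. Cnp had log2 levels of 9.79, 10.36 and 10.10 in SmoM2 hemisphere GCPs, against 11.39, 11.36 and 11.30 in WT hemisphere GCPs. Cnp had log2 levels of 10.18, 10.55 and 10.11 in SmoM2 vermis GCPs, against 11.75, 12.14 and 11.97 in WT vermis GCPs. No SmoM2 array came within 0.5 log2 units of a WT array. Cnp averaged 10.08 ± 0.28 in SmoM2 hemisphere and 11.35 ± 0.05 in WT hemisphere GCPs (SD, n = 3 each), a log2 difference of -1.27 ± 0.15 (SE, adjusted p = 6.89e-05) or 2.41-fold lower. Cnp averaged 10.28 ± 0.24 in SmoM2 vermis and 11.95 ± 0.20 in WT vermis GCPs (SD, n = 3 each), a log2 difference of -1.68 ± 0.15 (SE, adjusted p = 4.99e-06) or 3.19-fold lower. Ugt8a, the enzyme that makes galactosylceramide, the main glycolipid of myelin, had one of the larger differences. Ugt8a had log2 levels of 8.57, 9.10 and 8.89 in SmoM2 hemisphere GCPs, against 10.26, 10.64 and 10.06 in WT hemisphere GCPs. Ugt8a had log2 levels of 8.78, 9.38 and 8.80 in SmoM2 vermis GCPs, against 10.62, 11.26 and 10.80 in WT vermis GCPs. The groups were separated in both regions. Ugt8a averaged 8.85 ± 0.27 in SmoM2 hemisphere and 10.32 ± 0.30 in WT hemisphere GCPs (SD, n = 3 each), a log2 difference of -1.47 ± 0.21 (SE, adjusted p = 0.000263) or 2.77-fold lower. Ugt8a averaged 8.98 ± 0.34 in SmoM2 vermis and 10.89 ± 0.33 in WT vermis GCPs (SD, n = 3 each), a log2 difference of -1.91 ± 0.21 (SE, adjusted p = 2.46e-05) or 3.75-fold lower. Cldn11, the claudin of the tight junctions between myelin layers, had the smallest vermis difference. Cldn11 had log2 levels of 7.86, 8.04 and 7.81 in SmoM2 hemisphere GCPs, against 8.87, 8.91 and 8.83 in WT hemisphere GCPs. Cldn11 had log2 levels of 7.99, 8.60 and 8.37 in SmoM2 vermis GCPs, against 9.06, 9.61 and 9.35 in WT vermis GCPs. The third WT hemisphere array, at 8.83, and the second SmoM2 vermis array, at 8.60, came close to each other. Cldn11 averaged 7.90 ± 0.12 in SmoM2 hemisphere and 8.87 ± 0.04 in WT hemisphere GCPs (SD, n = 3 each), a log2 difference of -0.97 ± 0.16 (SE, adjusted p = 0.00078) or 1.96-fold lower. Cldn11 averaged 8.32 ± 0.31 in SmoM2 vermis and 9.34 ± 0.27 in WT vermis GCPs (SD, n = 3 each), a log2 difference of -1.02 ± 0.16 (SE, adjusted p = 0.000469) or 2.02-fold lower.

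**Figure D1:**
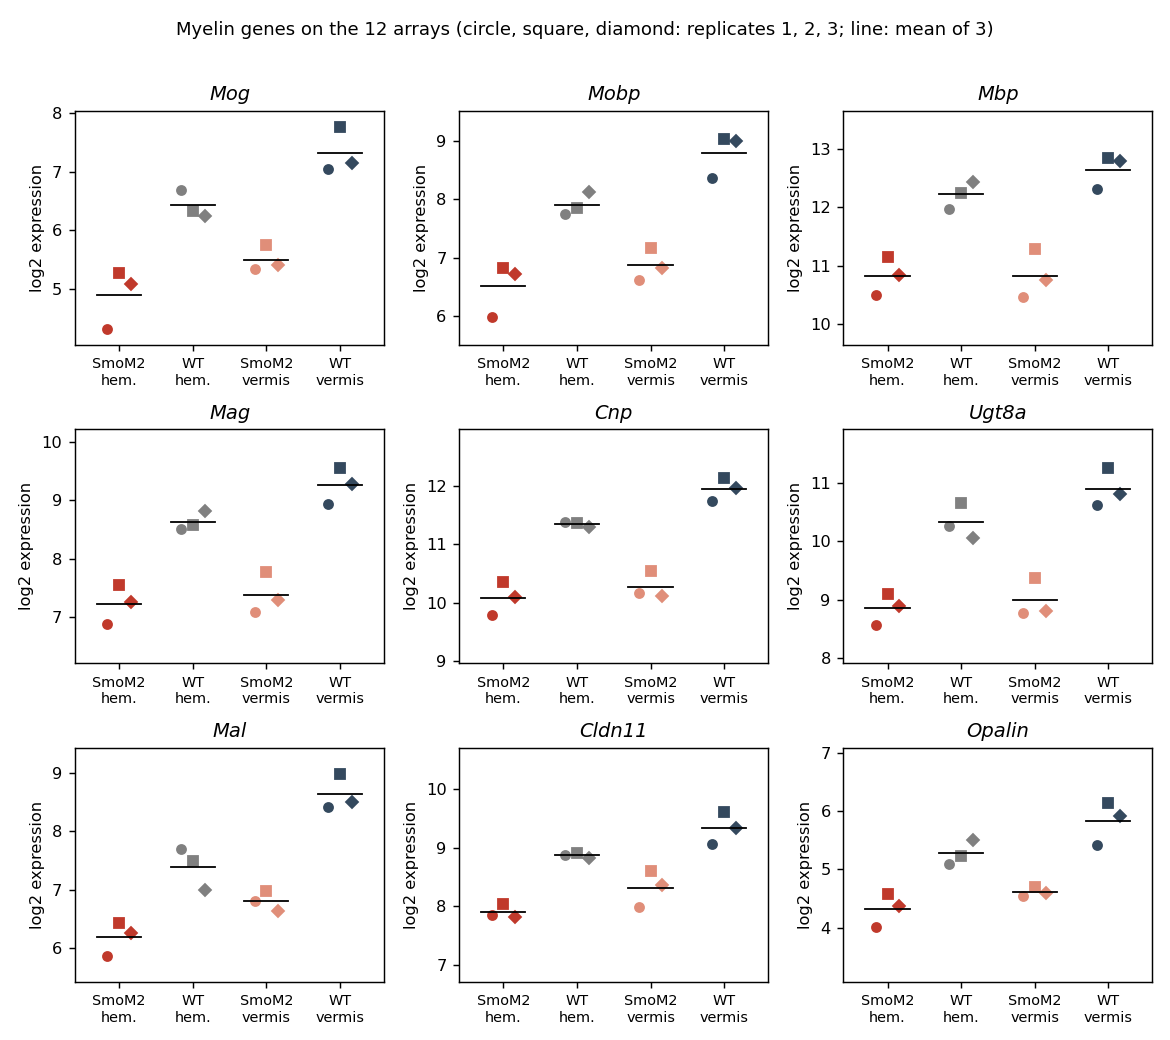
Level of each myelin gene on the 12 arrays (y axis, log2 expression of its brightest probe set, each panel spanning 4 log2 units; x axis, the 4 groups). Points are arrays (circle, square and diamond for replicates 1, 2 and 3) and lines are means of 3; in each of the 9 panels the 6 SmoM2 points lie below the 6 WT points.

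The order of the 4 group means was the same for all 9 members: highest in WT vermis, then WT hemisphere, then SmoM2 vermis, and lowest in SmoM2 hemisphere, although the SmoM2 means of Mbp were 10.83 in both regions. Of all genes, 11.3% had this order. Between neighbours in the order, SmoM2 vermis and WT hemisphere arrays did not overlap for 9 of 9 members, against 20% of all genes lower without overlap in SmoM2 vermis. WT hemisphere and WT vermis arrays did not overlap for 6 of 9, and SmoM2 hemisphere and SmoM2 vermis arrays did not overlap for 2 of 9, Mog and Mal. All 6 SmoM2 arrays lay below all 6 WT arrays for 9 of 9 members and for 7.74% of all genes.

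Hemisphere levels were below vermis levels for every member in WT GCPs, by 0.43 (Mbp) to 1.23 (Mal) log2 units, but only Mal passed. The Mal difference was -1.23 ± 0.19 (log2, hemisphere minus vermis, SE, n = 3 each, adjusted p = 0.0293), or 2.35-fold lower in the hemisphere, and 0.148% of all genes passed as lower. The others had adjusted p between 0.199 (Cnp) and 0.839 (Mbp). At an unadjusted p under 0.05, 8 of 9 members were lower, against 4% of all genes, with Mbp as the exception. The 2 regions did not overlap in WT GCPs for 6 of 9 members, against 4.69% of all genes lower without overlap; Mbp, Ugt8a and Opalin overlapped. Arrays with the same number in the 2 regions of a genotype deviated together, and the fit behind the values above left this out. With genotype and replicate number together as a random replicate block, 4 members passed as lower (Mal, adjusted p = 0.00292; Mobp, 0.0253; Cnp, 0.0292; Mog, 0.0409), beside 0.857% of all genes. With the number alone as a fixed replicate block, Mal (adjusted p = 0.0127) and Mobp (0.037) passed, beside 0.165% of all genes. With genotype and number together as a fixed block, Mal (adjusted p = 0.0277) and Mobp (0.0385) passed, beside 0.214% of all genes. The Mal call was lost without WT hemisphere replicate 2 (adjusted p = 0.0986) or 3 (0.0554), without WT vermis replicate 2 (0.141) or 3 (0.0604), without SmoM2 hemisphere replicate 3 (0.0515) and without SmoM2 vermis replicate 1 (0.0514). The second probe set of Mal gave -0.64 (adjusted p = 0.503, every probe set tested as a row). In fits without a block, Mobp was -0.56 with the mean of its probe sets (adjusted p = 0.565). With its most variable probe set Mobp was -0.57 (0.913). WT hemisphere arrays also had the lower 3′ to 5′ difference of Actb given above and a lower mean of the dap controls than WT vermis arrays, also given above, and their part in this result was not tested.

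In SmoM2 GCPs the same difference between hemisphere and vermis lay between -0.62 (Mal) and -0.00 (Mbp), with a median of -0.29. None of the 9 members passed (limma), where 0.044% of all genes passed as lower, and 3 were lower at an unadjusted p under 0.05 (Mog, Mal and Cldn11), against 2% of all genes. The 95% interval was -0.46 to 0.46 for Mbp and -1.03 to -0.20 for Mal. SmoM2 hemisphere and vermis arrays did not overlap for 2 members, against 5.09% of all genes lower without overlap. The difference between both SmoM2 effects, hemisphere minus vermis, was positive for all 9 members, from 0.05 (Cldn11) to 0.62 (Mal), which is a smaller decrease in the hemisphere. None of these passed (limma), nor did any other gene (0% of 18194). Only Mal was past an unadjusted p of 0.05 (0.62, 95% interval 0.03 to 1.21, limma adjusted p = 1), while 2.01% of all genes were higher at that level. The region contrasts and this difference use the same arrays as the comparisons of genotypes.

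**Figure D2:**
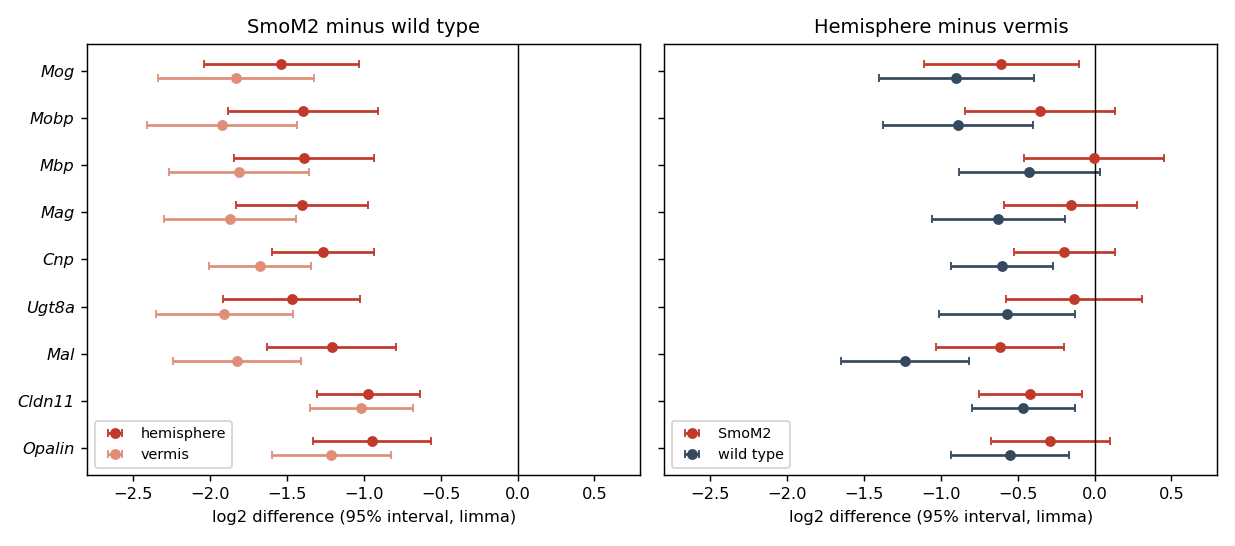
Differences of the 9 myelin genes on the log2 scale with 95% intervals from limma. Left, SmoM2 minus wild type in the hemisphere and the vermis; right, hemisphere minus vermis in SmoM2 and wild type; all 18 intervals on the left lie below 0, while on the right the wild type values reach from -0.43 to -1.23 and the SmoM2 values from -0.00 to -0.62.

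Members also shared their rank between arrays within a group. Replicate 2 was the highest of 3 for 9 of 9 members in SmoM2 hemisphere, in SmoM2 vermis and in WT vermis arrays. Replicate 1 was the lowest for 8, 7 and 9 members in these groups. In WT hemisphere arrays the highest value fell in replicate 1 for 3 members, in replicate 2 for 2 and in replicate 3 for 4. Averaged over the members after centring each on its 12-array mean, the level was -1.23, -0.62 and -0.84 in SmoM2 hemisphere replicates 1, 2 and 3 and 0.38, 0.42 and 0.39 in WT hemisphere replicates. In the vermis it was -0.78, -0.30 and -0.68 in SmoM2 replicates and 0.78, 1.38 and 1.10 in WT replicates (log2). In WT hemisphere arrays, alone of the 4 groups, the 3 averages lay within 0.1 log2 units.

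Of the 25 probe sets, 21 passed as lower in each region, 0 as higher and 4 did not pass, with every probe set of the table tested as a row; 5.46% of all rows passed as lower in the hemisphere and 6.61% in the vermis. Mbp had 8 probe sets. Of these, 6 were lower by 1.39 to 2.12 in the hemisphere and by 1.81 to 2.17 in the vermis (log2). The other 2 Mbp probe sets did not pass although they were not dim. The probe set 1425264_s_at, with a mean of 8.16, gave 0.06 in the hemisphere (95% interval -0.23 to 0.35, adjusted p = 0.815) and -0.13 in the vermis (-0.41 to 0.16, adjusted p = 0.56). The probe set 1425263_a_at, with a mean of 6.31, gave -0.13 (-0.50 to 0.24, adjusted p = 0.668) and -0.00 (-0.37 to 0.37, adjusted p = 0.997). The Mbp locus also makes golli transcripts, which start further upstream and are made in neurons and immune cells as well; the sources used here do not say which transcripts each probe set reads. Of 5 Mobp probe sets, 4 were lower by 1.39 to 2.08 in the hemisphere and by 1.86 to 2.55 in the vermis, and the dimmest, with a mean of 3.72, gave -0.47 (adjusted p = 0.179) and -0.21 (adjusted p = 0.548). The dim second probe set of Opalin, with a mean of 2.45, gave -0.15 (adjusted p = 0.401) and 0.04 (adjusted p = 0.811). Both probe sets of Mal and Ugt8a and the 3 of Cnp passed as lower in each region, Ugt8a by 0.73 and 1.47 in the hemisphere.

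**Figure D3:**
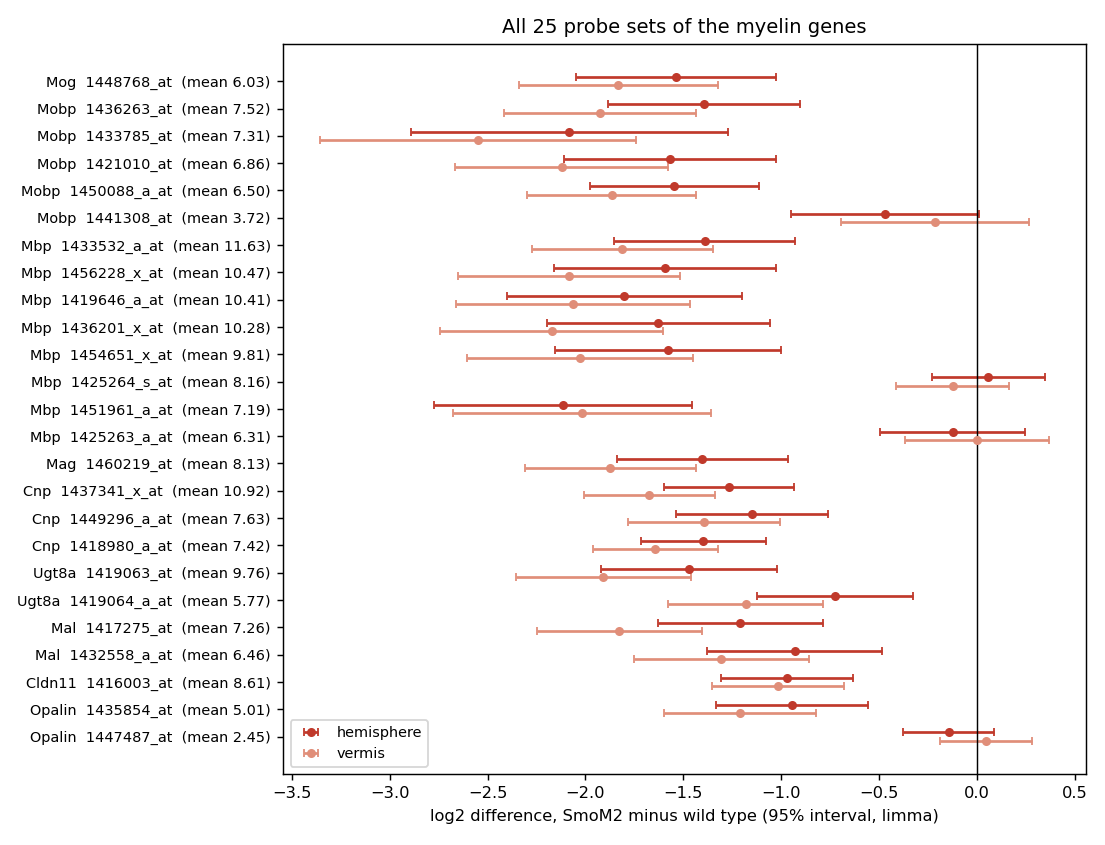
SmoM2 minus wild type differences of all 25 probe sets of the 9 myelin genes (x axis, log2 difference with 95% interval; y axis, gene, probe set and mean log2 level over 12 arrays). In each region 21 passed as lower; 2 of 8 Mbp probe sets, with means of 8.16 and 6.31, stay near 0.

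Other genes of myelin and of the oligodendrocyte lineage were read from lists. Beside the list counts here and further on stand the shares of all 18194 genes. For the hemisphere comparison these were 7.18% (lower) and 7.62% (higher). For the vermis comparison they were 9.46% (lower) and 7.56% (higher). List counts were not tested against these shares. Of 21 other myelin protein genes measured of 24 listed, 11 passed as lower and 2 as higher in the hemisphere, and 14 as lower and 1 as higher in the vermis. Their medians were -0.51 and -0.75. Plekhb1 had -1.13 ± 0.15 in the hemisphere (SE, adjusted p = 0.000187) and -1.60 ± 0.15 in the vermis (7.56e-06). The tetraspanin Tspan2 had -1.08 ± 0.21 in the hemisphere (SE, adjusted p = 0.00363) and -1.61 ± 0.21 in the vermis (0.000142). Plasmolipin (Pllp), a membrane protein of the same kind as Mal, had -1.10 ± 0.16 in the hemisphere (SE, adjusted p = 0.000294) and -1.49 ± 0.16 in the vermis (1.86e-05). These 3 lay within the range of the 9 members in both regions. The actin-severing protein Gsn had -0.92 ± 0.22 in the hemisphere (SE, adjusted p = 0.0121) and -1.45 ± 0.22 in the vermis (0.000413). The 2 genes that rose in the hemisphere were named after their values were seen. The tetraspanin Cd82 rose in both regions, with 1.07 ± 0.12 in the hemisphere (SE, adjusted p = 2.28e-05) and 0.80 ± 0.12 in the vermis (0.000276). The small heat shock protein Cryab had 1.15 ± 0.20 in the hemisphere (SE, adjusted p = 0.00119) and 0.53 ± 0.20 in the vermis (0.077), and its vermis value did not pass, but did with only the groups compared (adjusted p = 0.0324), with the number as a fixed replicate block (0.0447) and without SmoM2 hemisphere replicate 1 (0.0462). When a gene's probe sets were averaged the differences were smaller and still passed: 0.43 and 0.34 for Cd82 in the hemisphere and vermis, and 0.70 for Cryab and -0.58 for Gsn in the hemisphere. Without WT hemisphere replicate 2 or SmoM2 hemisphere replicate 1, the number lower in the hemisphere was 7 or 6, and without WT hemisphere replicate 1 or 3 or SmoM2 hemisphere replicate 1, the number higher in the vermis was 2. Gsn in the hemisphere missed the threshold without SmoM2 hemisphere replicate 1 (adjusted p = 0.0653).

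Lipid genes moved in part. Of 14 genes of galactolipid and sphingolipid synthesis, 3 were lower in the hemisphere and 5 were lower in the vermis, none was higher, and the list had medians of -0.09 and -0.16. The fatty acid elongase Elovl7 had -1.36 ± 0.20 in the hemisphere (SE, adjusted p = 0.000464) and -1.20 ± 0.20 in the vermis (0.00116). Fa2h, which hydroxylates the fatty acids of myelin galactolipids, had -0.79 ± 0.14 in the hemisphere (SE, adjusted p = 0.0021) and -1.47 ± 0.14 in the vermis (8.97e-06). Gal3st1 makes sulfatide from galactosylceramide, the product of Ugt8a, and had -0.81 ± 0.18 in the hemisphere (SE, adjusted p = 0.0087) and -1.27 ± 0.18 in the vermis (0.000294). These 3 passed in both regions, Elovl7 in the hemisphere with -0.82 when the mean of its probe sets was used. The glycolipid transfer protein Gltp had -0.11 ± 0.11 in the hemisphere (SE, adjusted p = 0.504) and -0.49 ± 0.11 in the vermis (0.00737). Of 15 cholesterol synthesis genes measured of 17 listed, 6 were lower in the hemisphere and 5 were lower in the vermis, with medians of -0.35 and -0.22 and 0 higher. Tm7sf2, a sterol reductase, had -0.70 ± 0.13 in the hemisphere (SE, adjusted p = 0.00227) and -0.75 ± 0.13 in the vermis (0.00122), and the synthase Hmgcs1, an early step of the pathway, had -0.51 ± 0.12 in the hemisphere (SE, adjusted p = 0.00852) and -0.55 ± 0.12 in the vermis (0.00518), and -0.86 in the hemisphere with its most variable probe set. Mvd had -0.54 ± 0.16 in the hemisphere (SE, adjusted p = 0.0352) and -0.62 ± 0.16 in the vermis (0.0168). Lss had -0.52 ± 0.16 in the hemisphere (SE, adjusted p = 0.0459) and -0.595 ± 0.16 in the vermis (0.0232). With the mean of its probe sets Lss was -0.19 in the hemisphere (0.171). Under other settings the adjusted p of Mvd reached 0.128 in the hemisphere and 0.0659 in the vermis. That of Lss reached 0.103 in the vermis. The hemisphere count of cholesterol genes fell to 3 without SmoM2 hemisphere replicate 1 and to 2 without replicate 3. The vermis count was 2 without SmoM2 vermis replicate 3 and 3 without WT vermis replicate 1 or 2 or SmoM2 vermis replicate 1 or 2.

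Markers of the stages before myelination split. Of 8 markers of newly formed oligodendrocytes measured of 10 listed, 5 passed as lower and 1 as higher in each region, with medians of -0.34 and -0.54. Gpr17, a receptor of premyelinating cells, had -1.03 ± 0.21 in the hemisphere (SE, adjusted p = 0.00437) and -1.83 ± 0.21 in the vermis (3.86e-05). The choline phosphodiesterase Enpp6 had -1.28 ± 0.22 in the hemisphere (SE, adjusted p = 0.00116) and -1.52 ± 0.22 in the vermis (0.000256). The secreted ligand Bmp4 had -0.68 ± 0.19 in the hemisphere (SE, adjusted p = 0.0306) and -1.23 ± 0.19 in the vermis (0.000592). All 3 were lower in both regions. Bcas1 rose, with 0.59 ± 0.14 in the hemisphere (SE, adjusted p = 0.0121) and 0.51 ± 0.14 in the vermis (0.0257). Leaving out any of WT hemisphere replicates 2 or 3, SmoM2 hemisphere replicates 1 or 3 or SmoM2 vermis replicate 3 brought the lower count in the hemisphere to 2 or 3, and without any other array it was 4; Bmp4 there had adjusted p from 0.053 to 0.131 without WT hemisphere replicate 1 or 2 or SmoM2 hemisphere replicate 1 or 3. Bcas1 no longer passed without SmoM2 hemisphere replicate 2 in the hemisphere (adjusted p = 0.0507) or with the mean of its probe sets (0.32, adjusted p = 0.0731), nor without WT vermis replicate 1 or 3 or SmoM2 vermis replicate 2 or 3 in the vermis (0.075 to 0.111).

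Of 10 precursor markers measured of 11 listed, 3 passed as lower in each region and 0 as higher, with medians of -0.18 and -0.19. The matrix protein Tnr had -1.27 ± 0.23 in the hemisphere (SE, adjusted p = 0.00229) and -1.92 ± 0.23 in the vermis (6.84e-05). Matn4, also a matrix protein, had -0.54 ± 0.11 in the hemisphere (SE, adjusted p = 0.00518) and -1.35 ± 0.11 in the vermis (1.93e-06). The cadherin Pcdh15 had -0.37 ± 0.09 in the hemisphere (SE, adjusted p = 0.0165) and -0.40 ± 0.09 in the vermis (0.0113). The differences of Tnr and Matn4 were larger in the vermis, and that contrast did not pass for either (limma, adjusted p = 1). Pcdh15 missed the threshold without SmoM2 hemisphere replicate 3 in the hemisphere (adjusted p = 0.0733) and without WT vermis replicate 2 in the vermis (0.0546). With the mean of its probe sets Pcdh15 had hemisphere and vermis differences of -0.082 (adjusted p = 0.56) and -0.21 (0.119), and with quantile normalization once more -0.22 (0.146) and -0.23 (0.132). With only the groups compared its hemisphere value also missed the threshold (0.0616). Lhfpl3 had -0.30 ± 0.23 in the hemisphere (SE, adjusted p = 0.394) and -0.42 ± 0.23 in the vermis (0.212). Pdgfra, the growth factor receptor that defines these precursors, was named after its values were seen and had -0.30 ± 0.11 in the hemisphere (SE, adjusted p = 0.0832) and -0.18 ± 0.11 in the vermis (0.267). Neither passed in either region in the fit across all 4 groups. Under other settings Pdgfra passed as lower in the hemisphere with quantile normalization once more (-0.35, adjusted p = 0.0401) and with trended and robust moderation (0.0453), and Lhfpl3 in the vermis with its most variable probe set (-0.71, adjusted p = 0.0412).

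Transcription factors of the lineage moved in both directions. Of 11 measured of 13 listed, 3 passed as lower and 5 as higher in the hemisphere, and 4 as lower and 3 as higher in the vermis, against 7.62% of all genes higher in the hemisphere and 7.56% in the vermis; the medians were 0.20 and 0.12. Myrf, which binds and switches on myelin genes, had -1.06 ± 0.15 in the hemisphere (SE, adjusted p = 0.000229) and -1.31 ± 0.15 in the vermis (3.14e-05). Sox10, which acts with it, had -0.76 ± 0.15 in the hemisphere (SE, adjusted p = 0.00343) and -1.34 ± 0.15 in the vermis (3.14e-05). Olig2, a factor that specifies the lineage, averaged 6.95 in SmoM2 hemisphere and 4.85 in WT hemisphere GCPs and 6.77 in SmoM2 vermis and 5.30 in WT vermis GCPs (log2). The difference of Olig2 was 2.10 ± 0.17 in the hemisphere (SE, adjusted p = 1.67e-06) and 1.47 ± 0.17 in the vermis (4.92e-05). Olig1, its close relative, had 1.75 ± 0.13 in the hemisphere (SE, adjusted p = 6.98e-07) and 1.09 ± 0.13 in the vermis (5.8e-05). The other members that passed, St18 lower in both regions, Nkx2-2 lower in the vermis, Tcf7l2 higher in both and Zeb2 and Sox8 higher in the hemisphere, were named after their values were seen. St18 had -0.67 ± 0.11 in the hemisphere (SE, adjusted p = 0.000932) and -0.64 ± 0.11 in the vermis (0.00112). Nkx2-2 had -0.28 ± 0.20 in the hemisphere (SE, adjusted p = 0.372) and -0.84 ± 0.20 in the vermis (0.0125). Tcf7l2 had 0.68 ± 0.11 in the hemisphere (SE, adjusted p = 0.00105) and 0.45 ± 0.11 in the vermis (0.0153). Among the transcription factors, the calls of Olig2, Olig1, Myrf, Sox10 and St18 held in both regions without any single array. Zeb2 had 1.20 ± 0.25 in the hemisphere (SE, adjusted p = 0.0053) and 0.76 ± 0.25 in the vermis (0.0519). Sox8 had 0.57 ± 0.17 in the hemisphere (SE, adjusted p = 0.0397) and 0.27 ± 0.17 in the vermis (0.294). Sox8 missed the threshold without any of 6 arrays (adjusted p from 0.0502 to 0.161), Tcf7l2 in the vermis without WT vermis replicate 2 or 3 or SmoM2 vermis replicate 1 or 3 (0.0503 to 0.0703) and Nkx2-2 in the vermis without SmoM2 vermis replicate 3 (0.0548), while Zeb2 in the vermis passed without WT hemisphere replicate 1 or 3 or WT vermis replicate 1 (0.00815 to 0.0423) and under 8 other alternatives (0.00175 to 0.0484). With the mean of their probe sets the differences of Sox10 were -0.50 in the hemisphere and -0.66 in the vermis, both passing, that of Zeb2 in the hemisphere was 0.68, passing, and those of Tcf7l2 were 0.29 (adjusted p = 0.0317) and 0.23 (0.0714). With only the groups compared Sox8 missed the threshold (0.0824), and with quantile normalization once more so did Nkx2-2 in the vermis (0.0533).

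Of 10 genes that restrain myelination, 4 passed as higher and 1 as lower in each region, with medians of 0.52 and 0.36. The Notch ligand Jag1 had 2.33 ± 0.16 in the hemisphere (SE, adjusted p = 3.12e-07) and 1.91 ± 0.16 in the vermis (1.93e-06). Its receptor Notch1 had 1.47 ± 0.19 in the hemisphere (SE, adjusted p = 0.000116) and 1.21 ± 0.19 in the vermis (0.000556). The Notch target Hes5 had 1.80 ± 0.42 in the hemisphere (SE, adjusted p = 0.0107) and 1.50 ± 0.42 in the vermis (0.0266). These 3 genes of the Notch pathway were higher in both regions. Hes1, another Notch target on this list, passed in neither region and was named after its values were seen. The transcription factor Sox6 had 0.63 ± 0.16 in the hemisphere (SE, adjusted p = 0.0166) and 0.71 ± 0.16 in the vermis (0.00801). The count higher in the hemisphere was 2 without SmoM2 hemisphere replicate 3. Hes5 missed the threshold in the hemisphere without WT hemisphere replicate 2 (adjusted p = 0.0557) or SmoM2 hemisphere replicate 3 (0.0505), and in the vermis without WT vermis replicate 2 (0.0985) or SmoM2 vermis replicate 2 (0.119) or 3 (0.053). Sox6 missed it in the hemisphere without WT hemisphere replicate 3 (0.0696) or SmoM2 hemisphere replicate 3 (0.0691). The gene that passed as lower, named after its values were seen, was Id2 in the hemisphere (adjusted p = 0.0499) and Id4 in the vermis (0.0443). Both are inhibitors of basic helix-loop-helix factors, and Id2 was lost without any of 8 arrays and Id4 without any of 7, and both with every probe set tested as a row (0.0571 and 0.0534). Id2 was lost with only the groups compared too (0.0639), but with its most variable probe set it was -0.88 in the hemisphere and also passed in the vermis (0.0403). Id4 also passed as lower in the hemisphere under 8 alternatives (0.0173 to 0.0416). With the mean of its probe sets Sox6 had 0.34 in the hemisphere and 0.41 in the vermis, both passing.

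The last list held genes of the axonal node and paranode, whose proteins meet the sheath on the axon side. Of 12 axonal node and paranode genes measured of 13 listed, 8 passed as lower and 0 as higher in each region, with medians of -0.75 and -0.85, and the count stayed at 8 without any single array. The 4 that did not pass in either region, Cntnap1, Cntnap2, Nrcam and Nrg1, named after their values were seen, lay between -0.27 (Nrg1) and 0.18 (Cntnap2) in the hemisphere and between -0.18 (Nrcam) and 0.21 (Cntnap2) in the vermis. The potassium channel Kcna1, which sits beside the paranode, had -1.64 ± 0.28 in the hemisphere (SE, adjusted p = 0.0011) and -1.79 ± 0.28 in the vermis (0.000481). The adhesion protein Cntn1 had -1.39 ± 0.14 in the hemisphere (SE, adjusted p = 1.14e-05) and -1.74 ± 0.14 in the vermis (1.27e-06). Nfasc, whose forms are made by neurons and by glia, had -1.20 ± 0.12 in the hemisphere (SE, adjusted p = 1.66e-05) and -1.78 ± 0.12 in the vermis (3.42e-07). The decreases of these 3 lay within the range of the 9 members, or beyond it for Kcna1 in the hemisphere. The adhesion protein L1cam had -1.13 ± 0.19 in the hemisphere (SE, adjusted p = 0.000948) and -1.40 ± 0.19 in the vermis (0.000142), and -0.88 in the vermis with the mean of its probe sets.

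**Figure D4:**
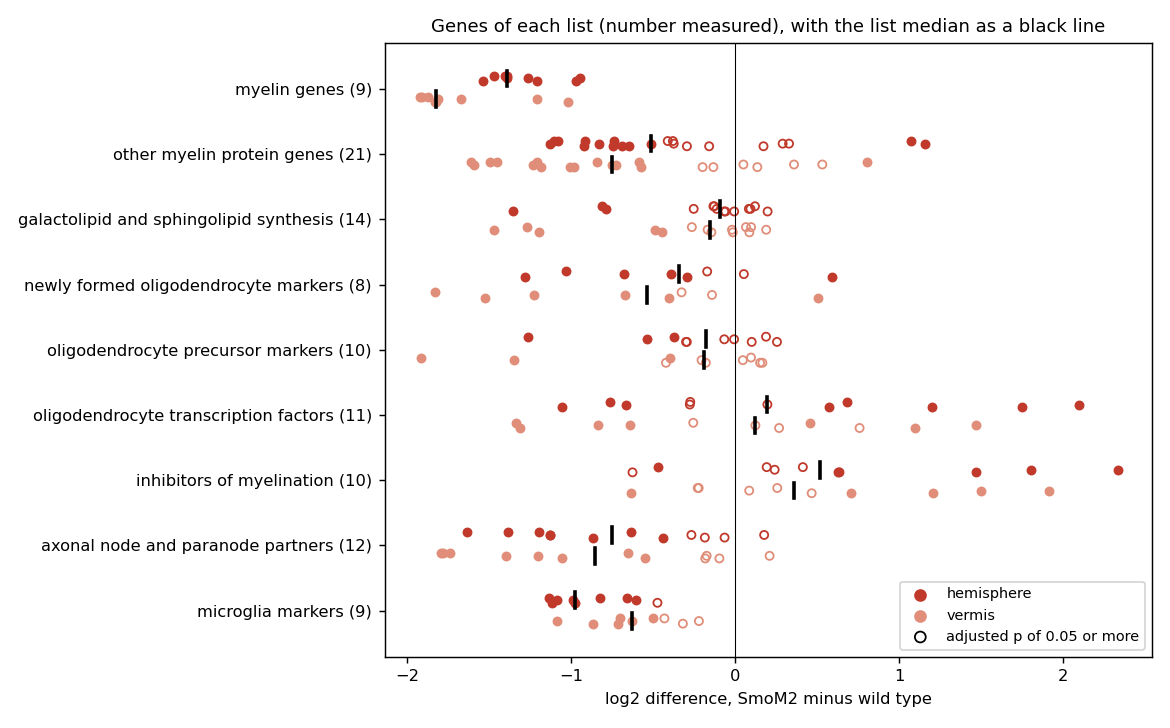
SmoM2 minus wild type differences (x axis, log2) of the genes of each list (y axis, number measured in brackets), with hemisphere points above vermis points in each row. Filled points passed at an adjusted p under 0.05 and black lines are list medians: the 9 myelin genes have medians of -1.39 and -1.83, other myelin protein genes -0.51 and -0.75, and genes that restrain myelination 0.52 and 0.36.

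Markers of other cell types moved beside the myelin genes. Summed over the 9 members on the linear scale, myelin signal ran from 11.66 to 12.24 in SmoM2 hemisphere arrays and from 13.19 to 13.37 in WT hemisphere arrays, and from 11.84 to 12.45 in SmoM2 vermis and 13.55 to 14.06 in WT vermis arrays (log2 of the sum). The sum over 9 microglia markers measured of 10 listed ran from 8.89 to 9.45 in SmoM2 hemisphere and from 10.14 to 10.37 in WT hemisphere arrays, and from 9.13 to 9.68 in SmoM2 vermis and 10.14 to 10.27 in WT vermis arrays. Of these markers 8 passed as lower in the hemisphere and 6 in the vermis, among them Csf1r, the growth factor receptor of microglia, with -1.09 ± 0.19 in the hemisphere (SE, adjusted p = 0.00162) and -1.09 ± 0.19 in the vermis (0.00152), and the complement gene C1qc, with -1.12 ± 0.12 in the hemisphere (SE, adjusted p = 2.55e-05) and -0.72 ± 0.12 in the vermis (0.00116). P2ry12 had -0.98 ± 0.26 in the hemisphere (SE, adjusted p = 0.0235) and -0.87 ± 0.26 in the vermis (0.0374). Tyrobp had -1.14 ± 0.22 in the hemisphere (SE, adjusted p = 0.00299) and -0.70 ± 0.22 in the vermis (0.0414). Under other settings the adjusted p of P2ry12 reached 0.103 in the hemisphere and 0.126 in the vermis. That of Tyrobp reached 0.151 in the vermis. The vermis count of microglia markers was 3 without WT vermis replicate 1 or 3 or SmoM2 vermis replicate 2 or 3. GABAergic interneuron markers, 4 of 5 listed, summed to 6.98 to 7.68 in SmoM2 hemisphere and 7.87 to 8.40 in WT hemisphere arrays, and to 6.64 to 7.30 in SmoM2 vermis and 8.21 to 8.63 in WT vermis arrays; 3 were lower in the hemisphere and 4 were lower in the vermis, and the hemisphere count was 0 without WT hemisphere replicate 2 or SmoM2 hemisphere replicate 1 or 3. Astrocyte and Bergmann glia markers, 11 in all, summed to 12.91 to 13.42 in SmoM2 hemisphere and 13.49 to 13.82 in WT hemisphere arrays, and to 13.12 to 13.56 in SmoM2 vermis and 13.49 to 13.79 in WT vermis arrays. Granule cell progenitor markers, 9 in all, summed to 14.44 to 14.52 in SmoM2 hemisphere and 14.78 to 14.90 in WT hemisphere arrays, and to 14.48 to 14.49 in SmoM2 vermis and 14.73 to 14.85 in WT vermis arrays. Of these 9, 4 passed as lower and 1 as higher in the hemisphere, and 3 as lower and 1 as higher in the vermis, with medians of -0.24 and -0.18. Atoh1, the 1 that rose in both, had 0.82 ± 0.12 in the hemisphere (SE, adjusted p = 0.000363) and 0.85 ± 0.12 in the vermis (0.000236). The differentiation factor Neurod1 had -0.85 ± 0.09 in the hemisphere (SE, adjusted p = 2.16e-05) and -0.82 ± 0.09 in the vermis (3.17e-05). A sum on the linear scale gives bright genes the most weight. Neurod1 averaged 12.13 in SmoM2 hemisphere and 12.98 in WT hemisphere GCPs (log2), where Atoh1 averaged 8.98 and 8.16. The lower sum is therefore not a count of progenitors. Mfap4 had -0.98 ± 0.13 in the hemisphere (SE, adjusted p = 0.000176) and -0.60 ± 0.13 in the vermis (0.007). The transcription factor Barhl1 had -0.97 ± 0.27 in the hemisphere (SE, adjusted p = 0.0302) and -0.79 ± 0.27 in the vermis (0.0621). The other gene that fell, the transcription factor Pax6, was named after its values were seen and had -0.55 ± 0.09 in the hemisphere (SE, adjusted p = 0.0013) and -0.56 ± 0.09 in the vermis (0.00103). It was -0.85 in the hemisphere with its most variable probe set and -0.37 in the vermis with its probe sets averaged, both passing. Barhl1 in the hemisphere missed the threshold without WT hemisphere replicate 3 or any SmoM2 hemisphere replicate (adjusted p from 0.0574 to 0.111), and its vermis value passed under 8 alternatives (0.012 to 0.0464). The number higher in the vermis was 2 without WT vermis replicate 1. Schwann cells make the myelin of peripheral nerves and share Mbp, Mag and Mal; their markers, 4 of 7 listed, summed to 7.00 to 7.37 in SmoM2 hemisphere and 7.00 to 7.34 in WT hemisphere arrays, and to 7.21 to 7.26 in SmoM2 vermis and 6.99 to 7.32 in WT vermis arrays. On every array, 1 Schwann cell marker lay under the array's lower quartile, and 0 markers of the other cell types in this paragraph did. Of the axonal node and paranode genes described before, 1 did. The part of these cell types in the myelin result was not tested.

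Outside the 9 members, the genes whose levels over the 12 arrays were most like the average myelin gene were Plekhb1, Tspan2, Kndc1, Tmem141, Pllp, Cntn1, Gsn, Nkain2, Tmem88b and Nfasc. Likeness was the root-mean-square distance over 12 arrays between a gene's log2 values and the average of the 9 members, each centred on its own mean. It ran from 0.09 (Plekhb1) to 0.24 (Nfasc) for these 10 genes, and from 0.08 (Cnp) to 0.29 (Cldn11) for the members, against a median of 0.80 and a first percentile of 0.44 over all genes. Plekhb1 averaged 6.55 ± 0.24 in SmoM2 hemisphere and 7.68 ± 0.03 in WT hemisphere GCPs, and 6.80 ± 0.21 in SmoM2 vermis and 8.39 ± 0.27 in WT vermis GCPs (log2, SD, n = 3 each). Kndc1, which is on none of the lists, averaged 3.90 ± 0.19 in SmoM2 hemisphere and 4.99 ± 0.21 in WT hemisphere GCPs, and 4.09 ± 0.39 in SmoM2 vermis and 5.74 ± 0.21 in WT vermis GCPs. With the mean of its probe sets the hemisphere difference of Kndc1 was -0.57, against -1.09 with the brightest. Over the alternatives its vermis difference ran from -1.87 to -0.72, against -1.65. These 10 genes were picked as the nearest of all genes, and the members make up the average itself. Both therefore lie low at least in part by construction. The distances and values are a description, and their place among all genes is not a test.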

How the data were processed

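Total RNA of each pool was labelled with a 3′ IVT kit and hybridised to a mouse 430 2.0 array, 1 array per pool. The deposited values were on the log2 scale, made by the authors with RMA in Partek, per the submitters' processing notes; the sources used here give no versions. Arrays have no read depth, and precision is limited by having 3 of them per group. Of 45101 probe sets, 34958 had 1 gene symbol, 932 several and 9211 none. The brightest probe set over the 12 arrays stood for each of 18194 genes. A 4-group model with empirical Bayes moderation was fitted with limma 3.58.1 in R 4.3.3, and p-values were adjusted by the Benjamini-Hochberg method over all 18194 genes, with a threshold of 0.05. The fit was tested on simulated data. Arrays of a group held different pools, so p-values measure the spread between pools of a group. For the region contrasts the main fit took same-numbered arrays as independent. Its p-values there do not measure the spread of a difference between same-numbered arrays.

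The text names all 9 members, up to 4 genes of each list (those with the largest mean difference over both regions) and the 10 genes most like the members; other genes are named as chosen after their values were seen. The members and lists were chosen with earlier results of these data known, and this holds for the alternatives too, which are described in the closing section. Array numbers come from the sample titles. Same-numbered hemisphere and vermis arrays of a genotype deviated together from their group means (correlations of 0.527, 0.337 and 0.511 in WT, and 0.142, 0.275 and 0.166 in SmoM2). Numbers were taken as pairs between regions of a genotype only in the alternatives with a replicate block. The main fit had no block, because the labels do not say that a number marks a shared pool. Between genotypes of a region the correlations ran from -0.224 to 0.177, and numbers were not taken as pairs.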

Additional observations from a re-analysis of the deposited data

How the results depend on the processing

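In the SmoM2 to WT comparisons the myelin genes kept their direction and passed in all 430 values over 24 alternatives, with adjusted p from 1.8e-07 to 0.0283; where Opalin fell under the level filter (only genes above the median level), 8 of 8 tested members passed. The replicate block changed no call there. The number of members lower in WT hemisphere than in WT vermis, 1 by the design as written, was 0 with the mean of all probe sets, 0 without moderation, 0 with only the groups compared, 2 with the number as a fixed replicate block, 4 with genotype and number as a random replicate block, 2 with genotype and number together as a fixed replicate block (added after seeing the data), and 0 to 1 without single arrays. The cause of the first 2 was not tested. In the first, Mal was -0.94 with the mean of its probe sets (limma, adjusted p = 0.0524), and its second probe set alone gave -0.64. Fitting only the compared groups uses fewer arrays. Between SmoM2 regions, and for the difference between the regional SmoM2 effects, 0 members passed under any of the 25 alternatives. Some differences turned sign, none of which passed. Between SmoM2 hemisphere and vermis, Mbp was 0.0067 with arrays centred on their medians. Without single arrays this difference ran from -0.19 to 0.22 for Mbp, from -0.32 to 0.038 for Mag and from -0.26 to 0.062 for Ugt8a, above 0 without SmoM2 hemisphere replicate 1 or SmoM2 vermis replicate 2. The difference between regional SmoM2 effects was -0.097 for Mbp with its most variable probe set. For Cldn11 it ran from -0.12 to 0.19, below 0 without WT vermis replicate 2, SmoM2 hemisphere replicate 2 or SmoM2 vermis replicate 1. Lhfpl3 in the hemisphere ran from -0.55 to 0.0047, above 0 without SmoM2 hemisphere replicate 1. The Mbp decrease in the hemisphere was -2.12 with its most variable probe set. Over all genes, the calls between SmoM2 and WT numbered 2694 in the hemisphere and 3096 in the vermis. In the hemisphere 1753 passed with only the groups compared, and 1633 to 4276 without single arrays; in the vermis 1756 to 3827 passed without single arrays. Between WT regions 34 genes passed, against 198 with the random replicate block, 21 above the median level, 15 with array quality weights, 5 without moderation and 3 with only the groups compared; between SmoM2 regions 11 passed, against 39, 6, 42, 1 and 15. Without single arrays these counts ran from 8 to 58 between WT regions and from 2 to 18 between SmoM2 regions. Without moderation, some genes named in the report also missed the threshold. In the hemisphere these were Gsn, Gal3st1, Bmp4, Hes5, Sox6, Sox8, Id2, Barhl1, P2ry12, Mvd and Lss (adjusted p from 0.0517 to 0.116). In the vermis they included Bcas1, Nkx2-2, Hes5 and Id4 (0.0643 to 0.127). Over all 24 alternatives the number lower in the hemisphere and in the vermis ran from 6 to 12 and from 8 to 14 for other myelin protein genes, from 2 to 7 and from 2 to 5 for cholesterol synthesis, from 1 to 4 in both for precursor markers, from 2 to 5 and from 4 to 6 for newly formed oligodendrocyte markers, from 6 to 8 in both for axonal node and paranode genes, from 5 to 9 and from 3 to 7 for microglia markers and from 0 to 4 and from 1 to 4 for GABAergic interneuron markers. The number of genes restraining myelination that were higher ran from 2 to 6 and from 3 to 4. Arrays with 3 pools per group limit what can be seen between regions: the 95% interval of a member there spanned up to about 1 log2 unit. For the difference between regional SmoM2 effects the intervals were wider, such as -0.42 to 1.01 for Mog.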

Other observations

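Other cell types of the cerebellum that the Percoll fraction could hold were read from their marker lists. None of 11 endothelial and pericyte markers passed in the hemisphere (limma; 0 lower and 1 higher at an unadjusted p under 0.05; 1 higher without WT hemisphere replicate 3), and 4 passed as lower in SmoM2 than in WT vermis GCPs, with medians of 0.03 and -0.54. Their summed signal ran from 10.57 to 10.82 in SmoM2 hemisphere and 10.40 to 11.27 in WT hemisphere arrays, and from 9.95 to 10.59 in SmoM2 vermis and 10.92 to 11.27 in WT vermis arrays (log2 of the sum). The vermis count ran from 1 to 6 without single arrays and was changed most without WT vermis replicate 2 or 3, any SmoM2 hemisphere replicate or SmoM2 vermis replicate 1 or 2. Of 5 Purkinje cell markers, 0 passed in the hemisphere (limma; 1 lower at an unadjusted p under 0.05) and 2 as lower in the vermis, where the count ran from 1 to 3 without single arrays (WT vermis replicate 2 or 3, SmoM2 hemisphere replicate 3 and each SmoM2 vermis replicate moved it). In the hemisphere the Purkinje lower count ran from 0 to 2, above 0 without WT hemisphere replicate 1, WT vermis replicate 1 or 3 or SmoM2 hemisphere replicate 2, and 1 passed as higher without SmoM2 hemisphere replicate 1. Of 11 astrocyte and Bergmann glia markers, 4 passed as lower and 2 as higher in the hemisphere, and 3 as lower and 2 as higher in the vermis; without single arrays the lower counts ran from 1 to 5 in the hemisphere (moved by WT hemisphere replicate 3 and SmoM2 hemisphere replicates 1 and 3) and from 1 to 4 in the vermis (WT vermis replicate 3 and SmoM2 vermis replicate 2), and the higher counts from 1 to 2 in both, moved by WT hemisphere replicate 2 and SmoM2 hemisphere replicate 3 in the hemisphere and by 5 arrays in the vermis. Erythroid markers, 3 of 4 listed, gave 0 calls in the hemisphere (limma; 1 lower at an unadjusted p under 0.05; 1 lower without WT vermis replicate 2) and 1 lower in the vermis, lost without WT vermis replicate 2 or 3. The Schwann cell list had 1 gene lower in the hemisphere, lost without any of 7 arrays, and 0 in the vermis (limma; 0 at an unadjusted p under 0.05).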
